A study of Mus musculus with 46 samples.

Results

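Stellate cell and extracellular matrix genes are described here as a set of 42 genes, chosen by name from the 25494 rows of the RNA-seq count table: collagens, laminins, proteoglycans and other matrix proteins, the enzymes that cross-link or cut the matrix, filament and retinoid genes of the stellate cell, and the ligands and receptors that act on it. The choice was by name, with no threshold on a measured value, but with earlier results of these data known. Each symbol matched 1 row, and all 42 passed the filter on low counts that left 13494 rows to test. Livers came from male C57BL/6 mice that arrived at 5 weeks of age and were then fed for 20 weeks either a diet with 60% of its energy as lipid (LD, the high fat diet of the labels) or one with 70% as carbohydrate (CD, the low fat diet). RNA-seq was performed on 5 mice per diet, ChIP-seq of the active histone mark H3K27ac on 3 mice per diet, ChIP-seq of Hnf4α and of C/EBPα on 2 per diet each, and promoter capture Hi-C (PCHi-C) on 2 per diet. Whole liver tissue was used throughout, so every value is a mixture over all its cells, and the labels do not tie the ChIP-seq samples to the mice of the RNA-seq. The RNA libraries held 31707963 to 39012699 counted read pairs each, and all coordinates are those of mm9.

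Hepatic stellate cells lie between the sinusoidal endothelium and the hepatocytes, store retinol as retinyl esters and, when activated by TGF-β and PDGF, become contractile cells that secrete fibrillar collagen. The matrix they lay down is shaped by prolyl and lysyl hydroxylases inside the cell, by lysyl oxidases that cross-link it outside, and by matrix metalloproteinases (MMPs) and their tissue inhibitors (TIMPs) that control its removal. Portal fibroblasts, endothelial cells, macrophages and hepatocytes make some of the same proteins, fibronectin and basement membrane components among them.

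The promoters of 3 members are shown because both RNA and histone data bear on them: they had the smallest adjusted p-values among members called in the RNA that also had an H3K27ac peak within 2 kb of the start site. They hold the 250 bases before the first base of the gene as the count table places it, read 5′ to 3′ from the mm9 genome (NCBIM37), for Col5a2 at chr1:45560128-45560377, minus strand, for Col3a1 at chr1:45368133-45368382, plus strand, and for Loxl2 at chr14:70009033-70009282, plus strand. Capitals mark matches on either strand to 4 strings. TATAAA is the core element of many regulated promoters. CCAAT is bound by the factor NF-Y in many others. TGANTCA, with N any base, is a loose form of the site of AP-1, the dimer of Fos and Jun proteins. CAGAC is the SMAD box, bound by the factors that carry the signal of TGF-β. None of the marked matches overlap.
Col5a2: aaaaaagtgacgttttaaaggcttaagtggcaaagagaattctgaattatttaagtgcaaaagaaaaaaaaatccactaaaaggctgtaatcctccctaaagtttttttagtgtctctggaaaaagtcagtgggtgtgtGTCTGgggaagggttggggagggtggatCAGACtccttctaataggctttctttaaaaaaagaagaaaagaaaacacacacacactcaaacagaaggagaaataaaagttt
Col3a1: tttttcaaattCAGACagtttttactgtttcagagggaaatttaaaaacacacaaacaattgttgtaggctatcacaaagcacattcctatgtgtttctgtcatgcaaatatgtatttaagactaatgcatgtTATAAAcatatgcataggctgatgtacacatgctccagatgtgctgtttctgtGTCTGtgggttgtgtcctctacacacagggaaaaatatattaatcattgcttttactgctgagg
Loxl2: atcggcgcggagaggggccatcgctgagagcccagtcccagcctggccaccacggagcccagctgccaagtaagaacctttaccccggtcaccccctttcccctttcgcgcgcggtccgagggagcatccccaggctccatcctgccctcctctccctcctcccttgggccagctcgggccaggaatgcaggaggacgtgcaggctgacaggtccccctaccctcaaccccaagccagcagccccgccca
The Loxl2 promoter held none of the 4 strings and was 68.4% G and C, against 36% for Col5a2 and 35.2% for Col3a1. Col5a2 held 2 SMAD boxes and Col3a1 held 2 SMAD boxes and 1 TATAAA.

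Over the promoters of all 42 members, TATAAA was found in 5 (11.9%, against 6.9% of the 13473 tested genes whose promoter could be read), CCAAT in 17 (40.5%, against 36.1%), a SMAD box in 21 (50%, against 39.9%) and TGANTCA in 3 (7.14%, against 4.38%). The 3 members with TGANTCA, chosen for display after the matches were seen, were Col6a1, Lum and Mmp13, each of which had more RNA on the LD in the test below. The match with 10 bases on either side is shown for each, in capitals, for Col6a1 at chr10:76188863-76188889, minus strand, for Lum at chr10:97027917-97027943, plus strand, and for Mmp13 at chr9:7272469-7272495, plus strand.
Col6a1: gctgatgctgTGACTCActcagctttg
Lum: ctaacccaagTGAATCAaataagtaat
Mmp13: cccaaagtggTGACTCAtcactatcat
The match began 90 bases before the start of Col6a1, 208 before that of Lum and 35 before that of Mmp13. The Lum match, TGAATCA, differs at its middle base from those of Col6a1 and Mmp13, TGACTCA. A match is a string in the genome and not a measured binding site.

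To ask how diet affects these genes, the counts of the 5 LD mice were compared with those of the 5 CD mice over all 13494 rows with edgeR's quasi-likelihood test, and a call needed both an adjusted p below 0.05 and a change of over 1.2-fold. Levels per mouse are in CPM, counts per 1000000 counted pairs after TMM scaling. Of the 42 members, 22 were called higher on the LD, where 13.8% of all rows tested were called in that direction, and 1 (Fn1) was called lower, against 11.1%. The median log2 fold change over the 42 members was 0.47, against 0.00 over all rows tested. Because the members were chosen with earlier results of these data known, these shares describe the set and do not test it. In 12 members all 5 LD mice lay above all 5 CD mice, which 10.2% of rows showed, and in 1 member all 5 lay below, which 8.35% showed. When the test itself required a fold change above 1.2 (edgeR's glmTreat), 11 members were higher and 1 lower, against 6.81% and 3.4% of all rows. In bulk tissue fewer or more cells of a type and less or more RNA per cell cannot be told apart. On the authors' TPM scale, tested with limma on log2(TPM + 1), 24 members were higher and 1 lower, while over all rows the calls split into 2227 higher and 740 lower, against 1859 and 1498 from the counts.

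**Figure D1:**
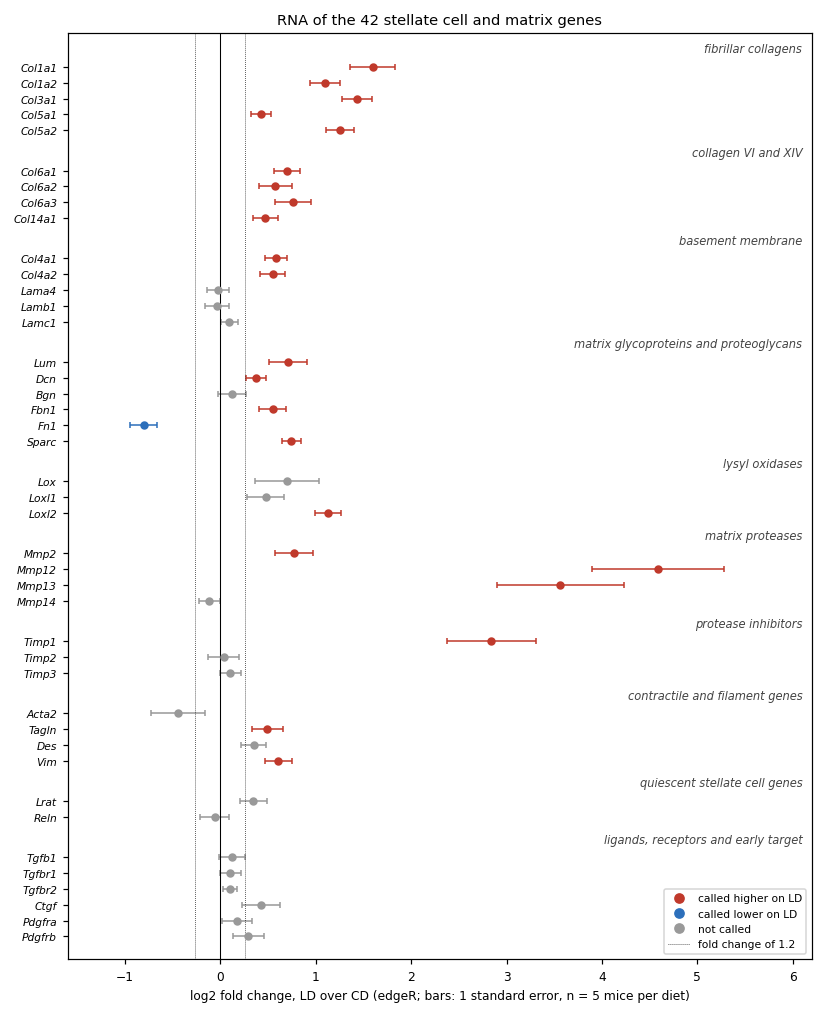
The log2 fold change of RNA (LD over CD, horizontal axis) of the 42 genes, grouped by role, from the edgeR fit on 5 mice per diet; points are fitted values, bars 1 standard error, and dotted lines a fold change of 1.2. All 9 fibrillar, type VI and type XIV collagen genes lie to the right of 0, Mmp12 (4.59), Mmp13 (3.56) and Timp1 (2.84) lie farthest out, and Fn1 (-0.80) is the only gene called lower.

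The fibrillar collagens form the cables of fibrous tissue, and all 5 members of this group were called higher on the LD. Col1a1 (Entrez 12842, chr11:94797538-94814356), the α1 chain of type I collagen, stood at 25.0, 37.0, 38.5, 29.5 and 55.5 CPM in LD mice 1 to 5 and 10.005, 16.9, 12.04, 8.76 and 13.5 CPM in CD mice 1 to 5. The lowest LD mouse lay above the highest CD mouse, and the level was 3.02-fold higher (log2 fold change 1.6 ± 0.23 (SE), adjusted p = 0.000841). Col1a2 (chr6:4455618-4491543), its partner chain, stood at 40.6, 62.8, 63.5, 49.9 and 78.2 CPM in LD mice 1 to 5 and 25.0, 33.0, 28.4, 25.3 and 26.1 CPM in CD mice 1 to 5. The diets again did not overlap (log2 fold change 1.1 ± 0.15 (SE), adjusted p = 0.000476). Col3a1 (chr1:45368383-45406551), type III collagen, stood at 152, 189, 208, 212 and 253 CPM in LD mice 1 to 5 and 70.9, 89.98, 78.5, 51.8 and 83.7 CPM in CD mice 1 to 5. It was 2.70-fold higher on the LD (log2 fold change 1.44 ± 0.16 (SE), adjusted p = 8.73e-05), with LD mouse 5 highest and CD mouse 4 lowest.

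Type V collagen sits inside type I fibrils and limits their width. Col5a2 (chr1:45431176-45560127), whose promoter sequence is given above, stood at 11.2, 19.1, 17.97, 15.9 and 20.1 CPM in LD mice 1 to 5 and 7.55, 7.54, 6.70, 5.75 and 7.80 CPM in CD mice 1 to 5. Its diets did not overlap, and it had the smallest adjusted p of all members (log2 fold change 1.25 ± 0.15 (SE), adjusted p = 8.43e-05). Col5a1 (chr2:27741945-27895030) stood at 19.0, 22.9, 25.7, 20.1 and 26.4 CPM in LD mice 1 to 5 and 16.3, 19.8, 15.3, 16.2 and 17.5 CPM in CD mice 1 to 5. This was the smallest rise of the group (log2 fold change 0.42 ± 0.10 (SE), adjusted p = 0.00861), and LD mouse 1 lay below CD mouse 2.

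The microfibrillar type VI chains and Col14a1, a collagen that decorates fibrils, were called higher in 4 of 4 cases, by less than Col1a1, Col1a2, Col3a1 and Col5a2. Col6a1 (chr10:76171537-76188789) stood at 18.7, 31.5, 21.1, 20.7 and 27.4 CPM in LD mice 1 to 5 and 13.8, 17.5, 14.9, 12.7 and 14.6 CPM in CD mice 1 to 5. All 5 LD mice lay above the CD mice (log2 fold change 0.70 ± 0.14 (SE), adjusted p = 0.00278). Col6a3 (chr1:92663435-92740548) stood at 34.3, 63.3, 40.7, 38.4 and 70.8 CPM in LD mice 1 to 5 and 27.8, 33.1, 29.4, 27.2 and 28.4 CPM in CD mice 1 to 5. LD mice 2 and 5 were far above the other LD mice, whose lowest value still exceeded every CD value (log2 fold change 0.76 ± 0.19 (SE), adjusted p = 0.0131).

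Col6a2 (chr10:76058501-76086149) stood at 9.44, 19.0, 11.1, 11.3 and 16.5 CPM in LD mice 1 to 5 and 8.60, 9.40, 9.999, 8.10 and 9.05 CPM in CD mice 1 to 5. Its diets overlapped (log2 fold change 0.58 ± 0.17 (SE), adjusted p = 0.0239), and it was not called when LD replicate 5, CD replicate 1 or CD replicate 4 was left out (adjusted p = 0.0592, 0.0519 and 0.058). Col14a1 (chr15:55139305-55352358) stood at 187, 253, 204, 169.9 and 219 CPM in LD mice 1 to 5 and 164, 191, 131, 124 and 137 CPM in CD mice 1 to 5. CD mouse 2 lay above LD mice 1 and 4, and the difference passed the test (log2 fold change 0.47 ± 0.13 (SE), adjusted p = 0.0176).

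Basement membranes are sheets of type IV collagen and laminin under epithelia and around vessels, and the 2 kinds of component differed in their calls. Col4a1 (chr8:11198423-11312826) stood at 100.8, 118.5, 125, 102 and 136 CPM in LD mice 1 to 5 and 88.6, 93.5, 67.7, 64.7 and 74.1 CPM in CD mice 1 to 5, without overlap (log2 fold change 0.58 ± 0.11 (SE), adjusted p = 0.00249). Col4a2 (chr8:11312805-11449287), which starts beside it on the opposite strand and was counted by strand, stood at 56.8, 64.5, 60.6, 51.1 and 72.7 CPM in LD mice 1 to 5 and 46.2, 53.0, 37.4, 31.5 and 40.6 CPM in CD mice 1 to 5. Only LD mouse 4 and CD mouse 2 overlapped (log2 fold change 0.55 ± 0.13 (SE), adjusted p = 0.0084). The laminin chains were not called: Lama4 gave log2 fold change -0.03 ± 0.11 (SE), adjusted p = 0.885, Lamb1 gave log2 fold change -0.03 ± 0.13 (SE), adjusted p = 0.869 and Lamc1 gave log2 fold change 0.10 ± 0.09 (SE), adjusted p = 0.476. The difference in fold change between the collagen and laminin chains was not tested.

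Among 6 matrix glycoproteins and proteoglycans, 4 were called higher and Fn1 lower. Sparc (chr11:55207661-55233582), a secreted protein that binds collagen, stood at 97.0, 109, 118, 130.2 and 122 CPM in LD mice 1 to 5 and 78.2, 76.8, 61.1, 59.3 and 68.2 CPM in CD mice 1 to 5. The diets did not overlap and LD mouse 4 was highest (log2 fold change 0.74 ± 0.10 (SE), adjusted p = 0.000157). Fbn1 (chr2:125126330-125332174), fibrillin-1 of the microfibrils, stood at 18.8, 24.6, 16.5, 17.1 and 26.95 CPM in LD mice 1 to 5 and 14.0, 17.3, 14.5, 12.4 and 12.8 CPM in CD mice 1 to 5. LD mice 3 and 4 lay below CD mouse 2 (log2 fold change 0.55 ± 0.14 (SE), adjusted p = 0.0129).

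The small leucine-rich proteoglycans bind collagen fibrils and set their spacing. Lum (lumican, chr10:97028135-97035337) stood at 12.9, 25.0, 21.6, 16.3 and 31.5 CPM in LD mice 1 to 5 and 14.6, 13.1, 12.4, 13.6 and 11.9 CPM in CD mice 1 to 5. LD mouse 1 lay below 3 of the 5 CD mice (log2 fold change 0.71 ± 0.20 (SE), adjusted p = 0.0227), and Lum was not called when LD replicate 2, CD replicate 3 or CD replicate 5 was left out (adjusted p = 0.0551, 0.0516 and 0.0528). Dcn (decorin, chr10:96942134-96980797) stood at 255, 326, 289, 218 and 325 CPM in LD mice 1 to 5 and 241, 217, 212, 202 and 215 CPM in CD mice 1 to 5, with a small rise (log2 fold change 0.38 ± 0.10 (SE), adjusted p = 0.0159). Bgn (biglycan) had 88.4 ± 22.8 CPM (SD, n = 5) on the LD and 81.4 ± 5.32 CPM (SD, n = 5) on the CD and was not called (log2 fold change 0.12 ± 0.15 (SE), adjusted p = 0.584).

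Fn1 (chr1:71632047-71699808) encodes fibronectin, which hepatocytes release into plasma and mesenchymal cells lay down in tissue. It stood at 1027, 697, 862, 859 and 824 CPM in LD mice 1 to 5 and 1061, 1316, 1814, 1661 and 1602 CPM in CD mice 1 to 5. Every LD mouse lay below every CD mouse (LD mouse 1 and CD mouse 1 lay closest), and it was the member called lower (log2 fold change -0.80 ± 0.14 (SE), adjusted p = 0.00118). Fn1 was also called lower in each of the 18 alternative fits. The counts do not separate its plasma and cellular splice forms. Per transcript length, Fn1 was the most abundant member on the CD (319 ± 70.1 TPM, SD, n = 5, in the authors' values) and second to Dcn on the LD (192 ± 28.1 TPM).

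Ranked by the authors' TPM, which divides by transcript length and so allows genes to be compared, Dcn followed Fn1 on the CD and led on the LD, with 185 ± 6.99 TPM on the CD and 255 ± 50.7 TPM on the LD (SD, n = 5). Col3a1 was at rank 8 on the CD and rank 5 on the LD, with 24.2 ± 4.96 TPM on the CD and 69.4 ± 15.4 TPM on the LD (SD, n = 5), and its LD mean lay within the spread of Bgn (60.3 ± 4.49 TPM on the CD and 69.5 ± 19.5 TPM on the LD (SD, n = 5)). Col1a2 moved from rank 19 on the CD to rank 11 on the LD, with 9.50 ± 1.34 TPM on the CD and 21.6 ± 6.19 TPM on the LD (SD, n = 5). Col1a1 moved from rank 31 to rank 19, with 3.72 ± 1.03 TPM on the CD and 11.99 ± 4.42 TPM on the LD (SD, n = 5). Mmp12 moved from rank 41 to rank 29, with 0.228 ± 0.0530 TPM on the CD and 5.95 ± 4.33 TPM on the LD (SD, n = 5), whereas Timp1 stayed at rank 39 (0.343 ± 0.216 TPM on the CD and 2.73 ± 1.28 TPM on the LD (SD, n = 5)).

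**Figure D2:**
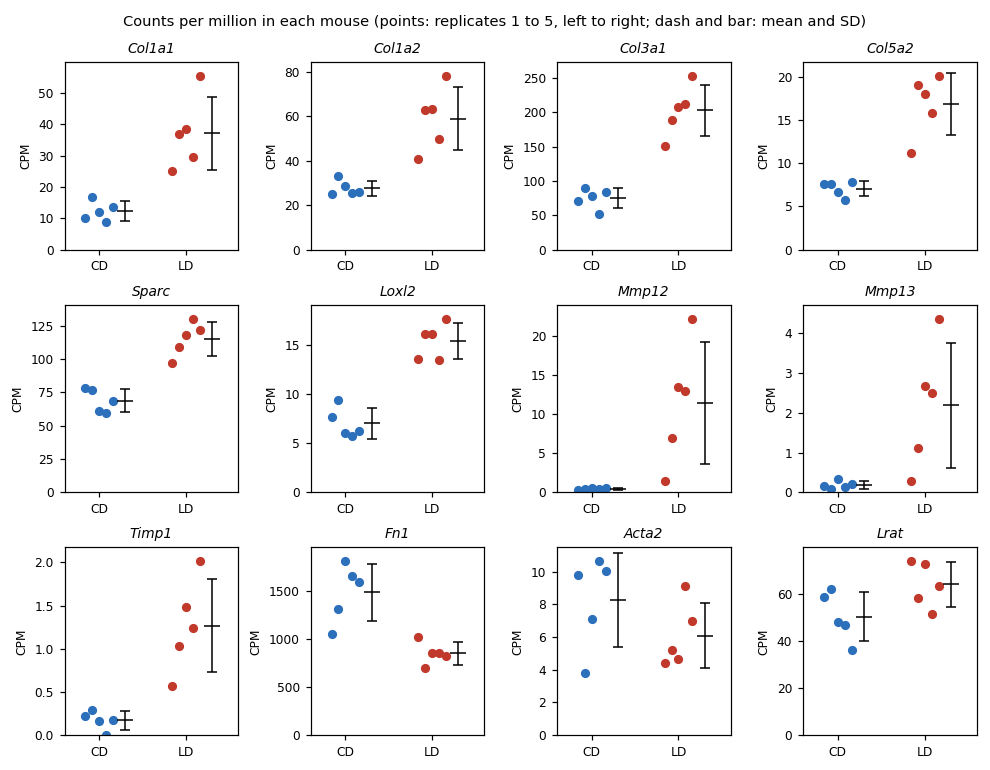
RNA level in CPM (vertical axis from 0) of 12 of the genes in each of the 5 CD (blue) and 5 LD (red) mice, with the mean and SD beside the points. The diets do not overlap for Col1a1, Col1a2, Col3a1, Col5a2, Sparc, Loxl2, Mmp12 and Timp1, nor for Fn1 in the other direction, while those of Mmp13, Acta2 and Lrat do.

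Lysyl oxidases oxidise lysines in collagen and elastin so that chains cross-link. Of 3 members, 1 was called. Loxl2 (chr14:70009283-70095641) stood at 13.6, 16.1, 16.1, 13.5 and 17.7 CPM in LD mice 1 to 5 and 7.71, 9.42, 6.03, 5.68 and 6.2 CPM in CD mice 1 to 5. No LD mouse reached down to the CD mice, and the level was 2.19-fold higher (log2 fold change 1.13 ± 0.14 (SE), adjusted p = 9.56e-05). Loxl1 had 4.56 ± 1.45 CPM (SD, n = 5) on the LD and 3.28 ± 0.402 CPM (SD, n = 5) on the CD and was not called (log2 fold change 0.47 ± 0.19 (SE), adjusted p = 0.0833), but was called higher with the replicate number as a block (adjusted p = 0.0461) and without LD replicate 1 or LD replicate 3 (adjusted p = 0.0418 and 0.0481). Lox, at 1.27 ± 0.615 CPM (SD, n = 5) on the LD and 0.778 ± 0.312 CPM (SD, n = 5) on the CD, was scarce, with 224 counts over the 5 LD mice and 133 over the 5 CD mice (log2 fold change 0.70 ± 0.34 (SE), adjusted p = 0.141).

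Among the matrix proteases, 3 of 4 were called higher, and 2 of these showed the largest fold changes of all members. Mmp12 (chr9:7344397-7360461), the elastase of macrophages, stood at 1.49, 6.92, 13.5, 13.01 and 22.2 CPM in LD mice 1 to 5 and 0.35, 0.444, 0.614, 0.413 and 0.524 CPM in CD mice 1 to 5. Every LD mouse exceeded every CD mouse, LD mouse 1 by least, and the fitted difference was 24.0-fold (log2 fold change 4.59 ± 0.69 (SE), adjusted p = 0.00144). Mmp13 (chr9:7272514-7283333), the main collagenase of mice, stood at 0.298, 1.107, 2.67, 2.49 and 4.36 CPM in LD mice 1 to 5 and 0.159, 0.0783, 0.335, 0.127 and 0.204 CPM in CD mice 1 to 5. The 5 CD mice gave 31 counts in all, LD mouse 1 lay below CD mouse 3, and the fitted difference was 11.8-fold (log2 fold change 3.56 ± 0.67 (SE), adjusted p = 0.00265).

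Mmp2 (chr8:95351196-95377320), a gelatinase made by stellate cells, stood at 4.46, 9.87, 6.11, 7.34 and 10.6 CPM in LD mice 1 to 5 and 4.11, 4.18, 4.72, 4.51 and 5.01 CPM in CD mice 1 to 5. LD mouse 1 lay among the CD mice (log2 fold change 0.77 ± 0.20 (SE), adjusted p = 0.0123). Mmp14, the membrane-bound enzyme that activates Mmp2, had 33.5 ± 6.41 CPM (SD, n = 5) on the LD and 36.3 ± 2.47 CPM (SD, n = 5) on the CD and was not called (log2 fold change -0.12 ± 0.11 (SE), adjusted p = 0.48).

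Of the 3 TIMPs, which block these enzymes, only Timp1 was called, also with each library left out. Timp1 (chrX:20447292-20451863) stood at 0.57, 1.03, 1.49, 1.24 and 2.01 CPM in LD mice 1 to 5 and 0.223, 0.287, 0.168, 0 and 0.175 CPM in CD mice 1 to 5. The 5 CD mice held 30 counts in all, with none in CD mouse 4, the diets did not overlap, and the fitted difference was 7.16-fold (log2 fold change 2.84 ± 0.47 (SE), adjusted p = 0.000808). With a filter of at least 10 counts in every mouse, neither Timp1 nor Mmp13 was tested. Timp2 had 19.96 ± 5.62 CPM (SD, n = 5) on the LD and 19.5 ± 1.74 CPM (SD, n = 5) on the CD (log2 fold change 0.03 ± 0.16 (SE), adjusted p = 0.897) and Timp3 had 52.2 ± 7.02 CPM (SD, n = 5) on the LD and 48.6 ± 6.84 CPM (SD, n = 5) on the CD (log2 fold change 0.10 ± 0.11 (SE), adjusted p = 0.525), and neither was called.

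The 5 LD mice stood in the same order, 1, 2, 4, 3 and 5 from low to high, for Mmp12, Mmp13 and Timp1. Gpnmb, a macrophage glycoprotein outside the 42 genes, had that order too and stood at 3.27, 6.04, 10.6, 10.3 and 17.5 CPM in LD mice 1 to 5 and 0.319, 0.313, 0.503, 0.381 and 0.524 CPM in CD mice 1 to 5 (log2 fold change 4.53 ± 0.47 (SE), adjusted p = 0.000107). The macrophage gene Trem2 shared only its ends (LD mouse 1 lowest, LD mouse 5 highest), and S100a8, a neutrophil gene, and Cd68, a lysosomal protein of macrophages, had LD mouse 5 lowest and LD mouse 2 highest. Col1a1, Col1a2, Col3a1 and Spp1, the last outside the 42 genes, also had LD mouse 1 lowest and LD mouse 5 highest. Their order between these ends was not that of Mmp12. These comparison genes were chosen after their values were seen.

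The contractile and filament genes gave calls for 2 of 4 members. Vim (chr2:13495938-13504453), vimentin, the filament of mesenchymal cells and leukocytes, stood at 47.5, 78.8, 47.9, 62.7 and 55.3 CPM in LD mice 1 to 5 and 40.9, 46.2, 31.1, 36.6 and 36.9 CPM in CD mice 1 to 5. The diets did not overlap (log2 fold change 0.61 ± 0.14 (SE), adjusted p = 0.00877). Tagln (chr9:45737711-45744141), an actin-binding protein of smooth muscle, stood at 11.3, 14.3, 10.3, 15.8 and 17.4 CPM in LD mice 1 to 5 and 12.8, 8.33, 7.93, 9.43 and 10.7 CPM in CD mice 1 to 5. Its groups overlapped (log2 fold change 0.49 ± 0.16 (SE), adjusted p = 0.0372), and it was not called in 7 of the 10 fits that left out 1 library, namely LD replicate 2, 4 or 5 or CD replicate 2, 3, 4 or 5 (adjusted p from 0.0517 to 0.0911).

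Acta2, α smooth muscle actin, the usual marker of an activated stellate cell, stood at 4.41, 5.18, 4.69, 9.16 and 6.96 CPM in LD mice 1 to 5 and 9.81, 3.78, 7.09, 10.6 and 10.04 CPM in CD mice 1 to 5. CD mouse 2 was the lowest of all 10 mice and the other CD mice held 4 of the 5 highest values, and Acta2 was not called (log2 fold change -0.44 ± 0.28 (SE), adjusted p = 0.276). Without CD replicate 2 it was called lower on the LD (log2 fold change -0.63, adjusted p = 0.0488), so that 2 members were then called lower, against 9.45% of all rows. Des, desmin, had 6.30 ± 1.03 CPM (SD, n = 5) on the LD and 4.95 ± 0.471 CPM (SD, n = 5) on the CD and was not called by edgeR with all 10 mice (log2 fold change 0.35 ± 0.13 (SE), adjusted p = 0.0558). It was called higher by DESeq2 (adjusted p = 0.0382), by limma on log2(TPM + 1) and log2(TPM + 0.1) (adjusted p = 0.0325 and 0.0324) and by edgeR without LD replicate 1 (adjusted p = 0.0324).

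Neither of the 2 genes of the resting stellate cell was called by edgeR or DESeq2 with all 10 mice; 1 had an unadjusted p under 0.05 and was called by limma on TPM (Lrat). Lrat, the enzyme that esterifies retinol for storage, stood at 73.9, 58.5, 72.8, 51.6 and 63.4 CPM in LD mice 1 to 5 and 58.8, 62.0, 48.0, 47.0 and 36.2 CPM in CD mice 1 to 5 (log2 fold change 0.35 ± 0.14 (SE), adjusted p = 0.0911). Reln, reelin, a secreted protein that marks stellate cells in liver, stood at 274, 322, 261, 158 and 271 CPM in LD mice 1 to 5 and 289, 307, 237, 253 and 254 CPM in CD mice 1 to 5 (log2 fold change -0.06 ± 0.15 (SE), adjusted p = 0.81). For Lrat, LD mice 1, 3 and 5 lay above every CD mouse and CD mice 3, 4 and 5 below every LD mouse, while for Reln the diets overlapped over most of their range. Without CD replicate 2, Lrat was called higher by edgeR (log2 fold change 0.43, adjusted p = 0.0446).

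None of the 6 ligands, receptors and early targets was called by edgeR, by DESeq2 or by limma on TPM, and 0 had an unadjusted p under 0.05 in edgeR. The log2 fold changes ran from 0.10 to 0.42. Tgfb1, the ligand TGF-β1, had 7.56 ± 1.17 CPM (SD, n = 5) on the LD and 6.95 ± 1.19 CPM (SD, n = 5) on the CD (log2 fold change 0.12 ± 0.14 (SE), adjusted p = 0.559). Its receptors gave a log2 fold change of 0.10, adjusted p = 0.522 for Tgfbr1 and 0.10, adjusted p = 0.331 for Tgfbr2. Ctgf, a secreted protein that TGF-β induces early, had 8.18 ± 2.19 CPM (SD, n = 5) on the LD and 6.09 ± 1.51 CPM (SD, n = 5) on the CD (log2 fold change 0.42 ± 0.20 (SE), adjusted p = 0.138), with LD mouse 1 highest. The PDGF receptors gave 0.18, adjusted p = 0.428 for Pdgfra and 0.29, adjusted p = 0.21 for Pdgfrb, the receptor by which stellate cells are often sorted.

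**Figure D3:**
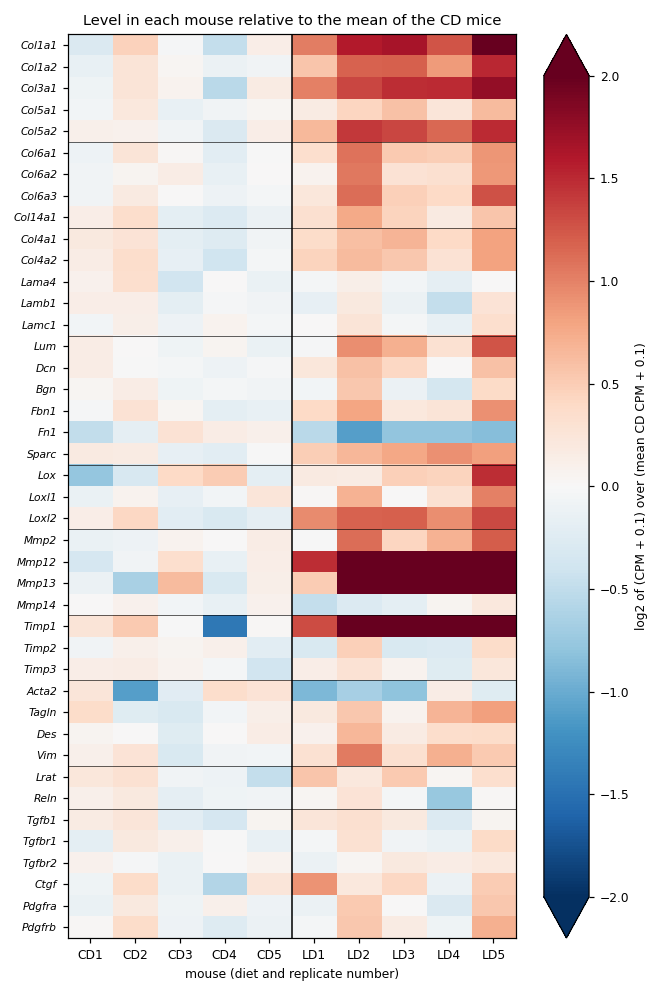
The level of each of the 42 genes (rows, lines between roles) in each of the 10 mice (columns), as log2 of CPM + 0.1 over the CD mean + 0.1; red is above and blue below the CD mean, and colours end at 2 and -2. The fibrillar collagens, Mmp12, Mmp13 and Timp1 are red in every LD mouse and palest in LD mouse 1, and Fn1 is blue in all 5.

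Within a diet the same mice were often the highest or the lowest. LD mouse 5 was the highest LD mouse for 25 of the 42 members and LD mouse 2 for 12, whereas LD mouse 1 was the lowest for 20 and LD mouse 4 for 16. CD mouse 2 was the highest CD mouse for 27 members and CD mouse 4 the lowest for 18. LD mouse 2 also held 26.4 CPM of the neutrophil gene S100a8, against 1.43 to 2.18 CPM in the other LD mice, and the largest sum of the macrophage markers. Without that mouse 20 members were called higher and 1 lower, against 13.1% and 10.4% of all rows.

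Other genes of the same processes were taken from 7 lists of 112 genes, of which 100 were tested, and 31 of them were called higher and 8 lower on the LD, where 13.8% and 11.1% of all rows were. Among genes that fold and process collagen, 7 of 14 were called higher, the largest being Serpinh1, the collagen chaperone Hsp47, at 28.5, 33.1, 30.8, 30.7 and 41.0 CPM in LD mice 1 to 5 and 22.7, 22.0, 18.4, 13.3 and 17.6 CPM in CD mice 1 to 5 (log2 fold change 0.80 ± 0.14 (SE), adjusted p = 0.00127). For Serpinh1 every LD mouse lay above every CD mouse. Among other proteases and inhibitors, 7 of 13 were called higher.

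Values in parentheses from here to the cell type markers are log2 fold changes, LD over CD. Among elastic fibre and matricellular genes, 9 of 17 were higher, led by Tnc, tenascin-C (log2 fold change 1.53, adjusted p = 0.0035), and 2 lower, with Fbln1, fibulin-1, at -1.21, adjusted p = 0.00784. The other collagens split into 3 higher, led by Col12a1 (1.35, adjusted p = 0.000369), and 2 lower, led by Col4a3 (-1.31, adjusted p = 0.0101), of 13. Of 12 other basement membrane genes, Lamb3 was highest (2.37, adjusted p = 0.00152) among 2 called higher and Lama3 (-1.24, adjusted p = 0.00802) was the 1 called lower. Collagen and fibronectin receptors gave 2 of 12 higher, led by the integrin Itga8 (0.44, adjusted p = 0.041).

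The TGF-β and PDGF signalling list had 1 of 19 genes called higher and 3 lower. Pdgfb, a ligand of Pdgfrb, was higher (0.68, adjusted p = 0.0208), and Smad7, an inhibitor that TGF-β induces, was lower, at 7.06, 9.61, 8.50, 7.22 and 7.91 CPM in LD mice 1 to 5 and 10.2, 12.4, 10.5, 12.9 and 12.4 CPM in CD mice 1 to 5 (log2 fold change -0.53 ± 0.11 (SE), adjusted p = 0.00277). The lists, also chosen with earlier results of these data known, were not compared with each other by a test.

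Markers of the cell types a liver sample holds were measured beside these genes. Over all rows tested, 13.8% were called higher and 11.1% lower on the LD. The 15 stellate cell markers outside the 42 genes gave 2 higher and 2 lower, the latter led by Hhip (-1.53, adjusted p = 0.0055), and their summed level ran from 213 to 320.0 TPM on the LD and from 251 to 305.4 TPM on the CD. Of 15 macrophage markers tested, 7 were higher, led by Gpnmb, with summed levels of 680.3 to 1439 TPM on the LD and 393 to 735 TPM on the CD, while Csf1r (0.16, adjusted p = 0.63), Adgre1 (0.52, adjusted p = 0.234) and Clec4f (0.14, adjusted p = 0.76), which resident liver macrophages carry and which are named here after their values were seen, were not called. Of 4 adipocyte markers tested, 4 were higher, led by Cidea (5.58, adjusted p = 2.57e-06), although Lep and Plin1 had no count in any mouse and Adipoq and Retn stayed under 0.1 CPM in all.

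Portal fibroblast and mesothelial markers gave 1 of 10 higher (Fbln2, 0.91, adjusted p = 0.000413), and smooth muscle markers 1 of 6 higher (Mcam, 0.68, adjusted p = 0.00253) and 2 lower, led by Myh11 (-1.07, adjusted p = 0.00417) among those with at least 1 CPM. Lymphocyte and neutrophil markers gave 2 of 12 higher (S100a8, 3.67, adjusted p = 0.0406, largest) and 1 lower (Cd4, -1.26, adjusted p = 0.00335). Endothelial markers gave 1 of 12 higher (Lyve1, 0.90, adjusted p = 0.0145), and cholangiocyte markers 1 of 8 higher (Spp1, 1.98, adjusted p = 0.00133) and 1 lower. Hepatocyte markers, whose sum was 96785 to 112119 TPM over the 10 mice, had 2 of 11 lower, led by Cps1 (-1.33, adjusted p = 0.000545). These list counts stand beside 13.8% of all rows called higher and 11.1% called lower. The part of these cell types in the values of the 42 genes was not tested.

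H3K27ac marks active promoters and enhancers, and its peaks were asked for around the same genes. The deposited peak lists hold intervals without read counts, so the share of each gene and 20 kb on either side that peaks cover was used. The total length under peaks was 149.8 to 160.4 Mb for LD and 139.7 to 145.4 Mb for CD, so every LD sample had more than every CD sample. Coverage was higher in every LD sample than in every CD sample for 12 of the 42 members, where 21.7% of the 13490 genes with a window showed this, and lower in every LD sample for 0, against 5.83%. An exact permutation test of 3 samples against 3 gives a two-sided p of 0.1 at the least, which is the value for each of the 12. The 12 were Col3a1, Col4a2, Lama4, Sparc, Mmp2, Mmp12, Timp2, Vim, Reln, Tgfb1, Tgfbr2 and Pdgfrb. The windows of Col3a1 and Col5a2 share 15.4 kb, and those of Col4a1 and Col4a2 share 40 kb.

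**Figure D4:**
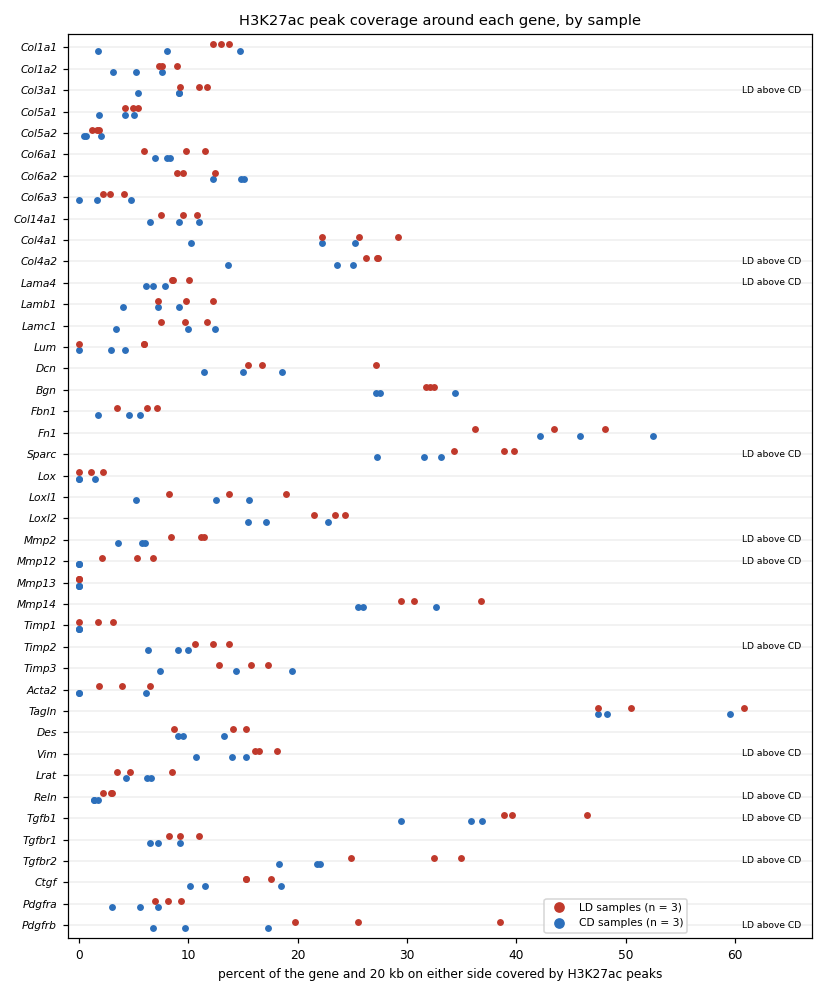
The percent of each gene and 20 kb on either side covered by H3K27ac peaks (horizontal axis) in the 3 LD (red) and 3 CD (blue) samples, for the 42 genes from top to bottom by role. The 12 genes marked at the right have all LD samples above all CD samples, and for Mmp13 every sample is at 0.

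Of these 12, the 5 with the largest difference were Pdgfrb, Tgfbr2, Tgfb1, Sparc and Col4a2. Pdgfrb was covered over 19.8, 38.5 and 25.5% in LD samples 1 to 3 and 9.76, 17.3 and 6.76% in CD samples 1 to 3. Its LD samples spread more widely than those of any other of the 5. Tgfbr2 was covered over 24.9, 32.4 and 34.9% in LD samples 1 to 3 and 22.1, 21.8 and 18.3% in CD samples 1 to 3, and Tgfb1 over 39.6, 46.5 and 38.9% in LD samples 1 to 3 and 35.8, 36.8 and 29.4% in CD samples 1 to 3. None of these 3 signalling genes was called in the RNA. Sparc was covered over 34.3, 39.7 and 38.8% in LD samples 1 to 3 and 31.6, 33.1 and 27.3% in CD samples 1 to 3, and Col4a2 over 26.2, 27.2 and 27.4% in LD samples 1 to 3 and 25.1, 23.6 and 13.6% in CD samples 1 to 3. For Col3a1, by contrast, the groups were barely apart, with 9.23, 11.8 and 11.02% in LD samples 1 to 3 and 9.21, 9.21 and 5.39% in CD samples 1 to 3. Within 2 kb of its start site alone the direction was the opposite, with 64.6, 74.6 and 79.6% in LD samples 1 to 3 and 100, 100 and 89.6% in CD samples 1 to 3.

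CD sample 3 was the lowest CD sample for 34 of the 42 members, and LD sample 2 the highest LD sample for 27. The count of 12 became 19 without LD replicate 1 and 21 without CD replicate 2 (28.1% and 30.1% of all genes), and 12 to 14 without any other sample, and 1 member (Col6a2) was lower without LD replicate 2 (8.89% of all genes) or without CD replicate 3 (8.4%). When coverage was divided by the total length a sample's peaks cover, 7 members were higher and 1 lower (12.9% and 16.4% of all genes). Within 2 kb of the start site alone, Tgfb1 and Pdgfrb were higher, and Col3a1, Col6a2 and Lama4 were lower (7.15% and 1.79% of all genes, respectively), so that Col3a1 and Lama4 turned from their direction in the wider window.

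A peak within 2 kb of the start site was present in all 6 samples for 31 of the 42 members (73.8%), against 86.6% of all genes. Timp1 and Mmp13 had none in any sample, Mmp12 and Acta2 had one in 2 samples and Lox in 3. Lum had one in 4 samples, and Col1a1, Col1a2, Col6a2, Col6a3 and Mmp2 had one in 5. Of the 5 members with a peak in at most 3 samples, Mmp12, Mmp13, Timp1 and Lox were the 4 least abundant on the CD by TPM, whereas Acta2 was at rank 24 of 42.

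RNA and coverage were set side by side. Among the 22 members with higher RNA, 6 had higher coverage in every LD sample, and among the 19 not called, 6 did. Over all genes, 43.4% of those called higher in the RNA and 19.8% of those not called had higher coverage. Across the 42 members, Spearman's rho between the log2 fold change and the difference in coverage was 0.0228, against 0.364 across all 13490 genes. These are correlations across genes, which are not independent replicates, and coverage here depends on gene length through the window.

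**Figure D5:**
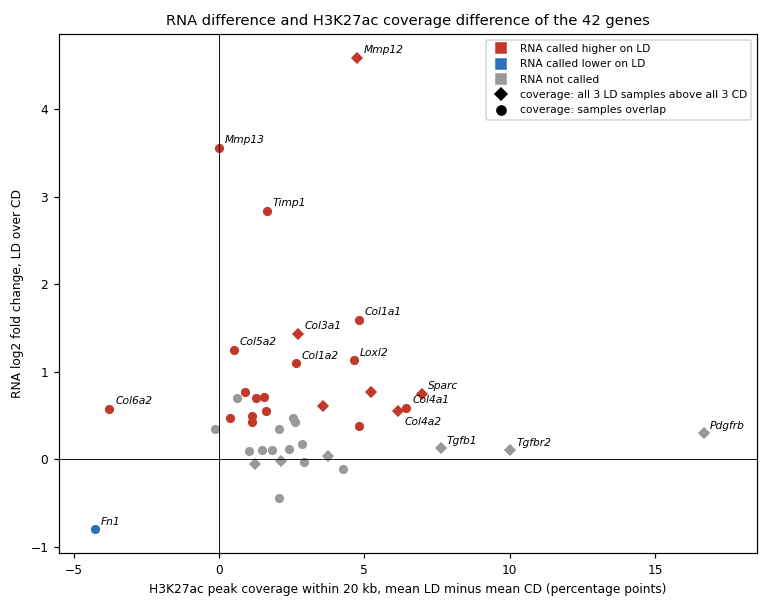
The RNA log2 fold change (vertical axis) of the 42 genes against the difference in mean H3K27ac coverage within 20 kb (LD minus CD, percentage points); diamonds have all 3 LD samples above all 3 CD samples. Pdgfrb, Tgfbr2 and Tgfb1 lie far right with RNA not called (0.29, 0.10 and 0.12), Mmp13 and Timp1 lie high with coverage differences of 0 and 1.65 points, and Fn1 is lower on both axes.

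Of 194 merged H3K27ac loci within 20 kb of a member, 86 were present in all 6 samples, 3 were LD-only (all 3 LD samples and no CD sample) and 1 was CD-only. Near all tested genes, 24514 of 39188 loci were present in all 6 samples, 2.78% were LD-only and 0.704% CD-only. With 1 sample left out, which makes the rule easier to meet, LD-only loci numbered 12, 7 and 5 without LD replicates 1, 2 and 3 and 6, 7 and 5 without CD replicates 1, 2 and 3. CD-only loci then numbered 2, 2, 1, 2, 1 and 1. The share over all loci was not computed with a sample left out, so these counts cannot be set against a general rise.

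Of the 3 LD-only loci, the one nearest to the start site of its own member lay at chr9:7335600-7337999, between genes and 6.4 kb upstream of Mmp12, the member with the largest RNA difference. The window of Mmp12 was covered over 2.14, 6.78 and 5.35% in LD samples 1 to 3 and 0, 0 and 0% in CD samples 1 to 3. The middle 300 bases of the locus (chr9:7336650-7336949, plus strand) are shown because this was the LD-only locus beside a member whose RNA was also called higher. They held none of the 4 strings that were searched in promoters, so no base is in capitals.
Mmp12 locus: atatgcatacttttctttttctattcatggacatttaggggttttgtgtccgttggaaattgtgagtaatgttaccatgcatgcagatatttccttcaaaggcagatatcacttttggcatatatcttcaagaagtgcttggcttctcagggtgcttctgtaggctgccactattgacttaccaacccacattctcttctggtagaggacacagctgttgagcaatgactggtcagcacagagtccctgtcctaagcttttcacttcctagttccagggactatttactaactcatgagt

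The LD-only locus of Timp3 (chr10:85809000-85810399) lay wholly in the 3′ untranslated region of that gene in the GENCODE annotation of NCBIM37, and within an intron of Syn3 on the other strand. Timp3 coverage was 15.7, 17.3 and 12.8% in LD samples 1 to 3 and 14.4, 19.5 and 7.41% in CD samples 1 to 3, with overlap, and its RNA was not called. The CD-only locus near Col6a2 (chr10:76045800-76048599) lay inside Ftcd, an enzyme of histidine breakdown in hepatocytes, and 37.5 kb from the start of Col6a2. Col6a2 was higher in the RNA on the LD and its coverage was 9.53, 12.5 and 8.94% in LD samples 1 to 3 and 14.9, 15.2 and 12.3% in CD samples 1 to 3.

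The LD-only locus beyond Pdgfrb (chr18:61257400-61260999) lay between genes, 52.6 kb from the start of Pdgfrb and 4.23 kb upstream of Csf1r, the macrophage colony-stimulating factor receptor. Neither Pdgfrb nor Csf1r (log2 fold change 0.16, adjusted p = 0.63) was called in the RNA. The coverage of the Pdgfrb window includes this locus.

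Hnf4α and C/EBPα are transcription factors of the hepatocyte, and their peaks were counted in the same windows. An Hnf4α peak was present in all 4 samples within 20 kb of 14 of the 42 members, against 74.1% of all genes, and 14 members had none in any sample. Col1a1, Col1a2, Col3a1, Col5a1, Col6a1 and Col6a3, Lama4, Lum, Lox, Mmp12, Mmp13, Acta2, Reln and Ctgf were the 14 without one. C/EBPα peaks were present in all 4 samples near 19 members, against 71.1%, and absent near Lum, Dcn, Mmp12 and Lrat. Near Fn1, LD samples 1 and 2 had 8 and 9 Hnf4α peaks and the CD ones 7 and 10, with heights up to 108 and 100.5 on the LD and 55 and 126.8 on the CD (the authors' tag counts scaled to a common library size). With 2 samples per diet no difference was tested.

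PCHi-C joins promoters to distant fragments, and the deposited lists pool both mice of a diet, so they carry no replicate error. Of the 42 members, 30 had an interaction within 1 Mb, 416 on the LD and 445 on the CD, of which 326 were shared (78.4% and 73.3%, against 70.9% and 71.3% over all tested genes). The largest difference in number was that of Fn1, with 35 interactions on the LD and 77 on the CD, 33 of them shared. Ctgf had 48 and 49, Timp3 41 and 38, Pdgfra 39 and 38, Col3a1 33 and 36 and Col14a1 32 and 34. The median over all 42 members was 3 on either diet, against 5 over the tested genes. Of the 13490 tested genes, 10792 had an interaction.

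An interacting fragment that held an LD-only H3K27ac locus was found for 1 of the 30 members (3.33%, against 6.88% of 10792 genes). It belonged to Mmp14, whose promoter joined a fragment 238.5 kb away (chr14:54810483-54813305) with a CHiCAGO score of 5.82 on the LD and none at 5 or more on the CD. Mmp14 RNA was not called. Fn1 and Ctgf each had 1 fragment with a CD-only locus, which was joined on both diets, and 221 of the 10792 genes touched a CD-only locus.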

How the data were processed

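Values were taken from the deposited tables of liver from mice fed the LD or the CD. The authors aligned RNA-seq read pairs to mm9 with STAR 2.5 and counted them on RefSeq genes with featureCounts 1.5.0-p1 on the reverse strand, and deposited raw counts per gene and TPM per sample; the TPM table also holds the authors' DESeq2 fold changes and false discovery rates, which were not used. Its CD column named Rep13, a number no label has, was used as a CD sample without a number. No column of sample values was left out (0 not used). Library totals were 31707963 to 39012699 counted pairs. For ChIP-seq the authors aligned reads with Bowtie 0.12.8, removed duplicates with Picard 1.110 and called H3K27ac peaks per sample with SICER, deposited as intervals without values. HOMER peaks of Hnf4α and C/EBPα carry a normalized tag count, a signal the authors scaled to a common library size. PCHi-C lists carry CHiCAGO scores of at least 5 that the authors computed over both samples of a diet.

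The 42 members and all gene and marker lists were chosen with earlier results of these data known. Counts were fitted with edgeR 4.0.16 (R 4.3.3; TMM scaling, filterByExpr, robust quasi-likelihood test, Benjamini-Hochberg adjustment over 13494 rows; common coefficient of variation 0.147), and CPM is counts per 1000000 of the TMM-scaled library. The 5 samples per diet are separate animals in the study's methods, and p-values measure the spread between them. H3K27ac coverage was computed over each gene and 20 kb on either side, and loci were merged peaks found in at least 2 samples. Sequences were read from the NCBIM37 genome. Alternatives were DESeq2 1.42.0, its size factors, other filters on low counts, limma 3.58.1 on log2(TPM + 1) and log2(TPM + 0.1), glmTreat, a replicate block, each sample left out, and other windows, scalings and merging distances for peaks. Tables and coverage were handled in Python 3.11.15. On simulated counts of 13494 rows for this LD against CD comparison, edgeR recovered 62.7% of genes changed 1.5-fold, 95.5% of those changed 2-fold and 98.5% of those changed 4-fold, and called 11 of 13222 unchanged rows. The changes were planted in 67, 67 and 66 rows, all above a minimum mean count. In the data themselves 24.9% of rows were called, so the simulated setting differs.

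All 42 members were named, with each mouse's value for those called. For the others each mouse's value, the mean or the fold change alone was given. From each pathway and marker list the called gene that changed most in each direction was named if either diet's mean reached 1 CPM, together with every diet-only H3K27ac locus, the 5 members with the largest coverage difference among those whose samples do not overlap, and the promoters of the 3 called members with the smallest adjusted p and a peak within 2 kb. For 3 lists the gene this rule names is not reported here. Separation scores of chromatin domains and the remaining samples of the series were not used here.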

Additional observations from a re-analysis of the deposited data

Results flagged for a closer look

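Among 84 groups of 5 mice (42 genes on 2 diets), 1 held a value set apart from the rest. Lox stood at 2.35 CPM in LD mouse 5 and at 0.881 to 1.12 CPM in the other 4 LD mice, so that the gap to its nearest neighbour was 0.839 of the group's range, above Dixon's critical value of 0.71. Chance alone sets apart about 1 in 20 such groups. Lox was not called in the RNA with or without this mouse.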

How the results depend on the processing

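Of the 22 members called higher, 9 were higher under all 18 alternatives (Col1a1, Col1a2, Col3a1, Col5a2, Col6a1, Col4a1, Sparc, Loxl2 and Mmp12) and 17 under all except glmTreat, which left 11 higher (6.81% of all rows). Leaving out each mouse gave 20 to 24 higher and 1 to 2 lower (12% to 13.9% and 8.83% to 11.7% of all rows). The replicate block gave 22 higher and 1 lower (13.5% and 10% of all rows), with Lum lost and Loxl1 gained. The deviations of same-numbered LD and CD mice from their diet means gave correlations of -0.13, 0.227, 0.0499, 0.021 and -0.0344. The largest, for number 2, stood beside a mean of -0.0469 with the other numbers. Correlations over genes cannot show whether the numbers pair the mice. With TPM and limma the direction turned for 2 uncalled laminins, Lama4 (0.05363 with a pseudocount of 1 and 0.06512 with 0.1) and Lamb1 (0.024 and 0.02369), and with the replicate block for Timp2 (-0.002422). With 1 mouse left out, directions also turned, none of them called, for Bgn (-0.008997 to 0.2155), Timp2 (-0.1007 to 0.1079), Lama4 (-0.1117 to 0.06939), Lamb1 (-0.1224 to 0.05823) and Reln (-0.1519 to 0.0743). Members with higher H3K27ac coverage numbered 8 within 5 kb (16.7% of all genes), 17 within 100 kb (32.1%), 2 at the start site, 7 after division by the covered length and 12 to 21 with 1 sample left out, and those with lower coverage 1 (5.11% of all genes), 0 (5.21%), 3, 1 and 0 to 1. LD-only loci numbered 1 within 5 kb, 9 within 100 kb, 18 with 2 samples required, 3 with peaks merged over 1 kb and 5 to 12 with 1 sample left out, and CD-only loci 0, 2, 2, 0 and 1 to 2. The share over all loci was not computed under these settings, so the locus counts have no background here. Fewer samples make the rule easier to meet, and the cause of the other shifts was not tested. Low counts limit Lox, Mmp13 and Timp1, and peak intervals hold no depth.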
